A study of Xenopus laevis with 20 samples.

Results

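The genes for the proteins of the cytosolic ribosome were followed in animal caps of the frog Xenopus laevis in which the transcription factors Pax3 and Zic1 had been switched on. They were taken by name: the annotated symbol of the probe set began with rpl and a digit, with rplp, or with rps and a digit, and the rps6k kinase genes were left out. A probe set also had to reach a log2 intensity of 4 on at least 5 of the 20 arrays, and of several probe sets of a symbol the one with the highest mean was kept. Of 88 such symbols, read by 147 probe sets, 86 became members, which are 86 of the 20519 probe sets tested and of the 32539 non-control probe sets on the array. They comprised 32 small-subunit and 54 large-subunit genes. The symbols without a member, rpl3l.L and rpl19-b, stayed below log2 4 on every array, with highest values of 2.17 and 1.58.

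Each of the 4 groups held 5 arrays, each hybridised with amplified RNA from 100 ng of total RNA of a single explant. Embryos had received mRNA at the 2-cell stage, encoding Pax3GR, Zic1GR, Pax3GR together with Zic1GR (the combination) or, as the negative control, the glucocorticoid receptor (GR) alone. Pax3GR and Zic1GR are forms of these factors that act once hormone is given. The caps, which are prospective ectoderm, were cut out at stage 9. All groups, GR included, then spent 8 h in the hormone dexamethasone, so that an effect of the hormone or of injection as such is common to all of them. Expression was forced from injected mRNA, and nothing in the labels says whether explants with the same replicate number came from the same clutch. The p-values below measure only the spread between these samples.

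A cytosolic ribosome is built from ribosomal RNA and about equal amounts of each of its proteins, and the genes for these proteins are among the most strongly expressed of growing cells. Their messages carry a 5' terminal oligopyrimidine (TOP) tract, through which growth signals regulate their translation, so that the level of the message and the making of the protein need not move together. Assembly of the subunits takes place largely in the nucleolus and needs a separate set of genes, the ribosome biogenesis factors, as well as RNA polymerase I and III for the ribosomal RNA. X. laevis is an allotetraploid: many genes exist as 2 copies, one on a long (.L) and one on a short (.S) chromosome.

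The ribosomal protein genes were bright and even. All 86 members lay at log2 4 or more on all 20 arrays, and 75 of them had a mean of 13 or more. The brightest were rpl31.S with a mean log2 intensity of 14.86, rpl32.L with 14.83 and rps3a.S with 14.79, and the dimmest were rpl34.S with 5.01, rps15a.S with 5.83 and rps15.S with 6.71. Probe sets differ in how brightly they bind, so these levels do not rank the messages. The lowest member, rpl34.S, lay above the level asked for, and the nearest probe sets outside it were another of rpl7l1.L and another of rps10.L, each with a highest value of 3.88.

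The brightest member, rpl31.S, which encodes a protein of the large subunit, shows how little most of them moved. Its log2 intensity was 14.89, 14.88, 14.74, 14.83 and 14.77 on the Pax3GR arrays, 14.87, 14.93, 14.91, 14.92 and 14.86 on the Zic1GR arrays, 14.87, 14.81, 14.91, 14.92 and 14.90 on the combination arrays and 14.83, 14.84, 14.81, 14.88 and 14.89 on the GR arrays. The 4 groups overlapped. Its differences from GR were -0.03, 0.05 and 0.03 on the log2 scale with Pax3GR, Zic1GR and the combination (adjusted p = 0.740, 0.549 and 0.690 with limma). Over the members, the median spread between arrays of a group (pooled SD) was 0.086 on the log2 scale, against 0.421 over all probe sets tested and 0.108 over the 1269 probe sets with a mean of 13 or more. The median distance between the highest and the lowest of the 4 group means was 0.11 for members, 0.998 for all probe sets tested and 0.23 for those at 13 or more. The highest value of any probe set on any array was 15.54. Whether brightness near the top of the scale limits the differences was not tested.

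On each array the members were also averaged. The mean log2 intensity of the 86 members was 13.36 ± 0.027 with Pax3GR, 13.46 ± 0.041 with Zic1GR, 13.45 ± 0.098 with the combination and 13.34 ± 0.080 with GR (SD, n = 5 each). The arrays ranged over 13.32 to 13.39 with Pax3GR, 13.41 to 13.50 with Zic1GR, 13.33 to 13.57 with the combination and 13.22 to 13.42 with GR. Pax3GR lay inside the range of GR, and Zic1GR and the combination overlapped with it. The members moved together within groups: combination replicate 4 had the highest value of its group for 70 of the 86 members and combination replicate 1 the lowest for 59, while GR replicate 3 was the lowest GR array for 53. Zic1GR replicate 5 was the lowest Zic1GR array for 52 members. The array that correlated least with the others of its group over all probe sets tested was replicate 1 of Pax3GR (mean r = 0.881), replicate 5 of Zic1GR (0.925), replicate 4 of the combination (0.922) and replicate 3 of GR (0.963), so results that rest on these arrays are also given without them. Between 18949 and 19239 probe sets reached log2 4 per array.

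**Figure D1:**
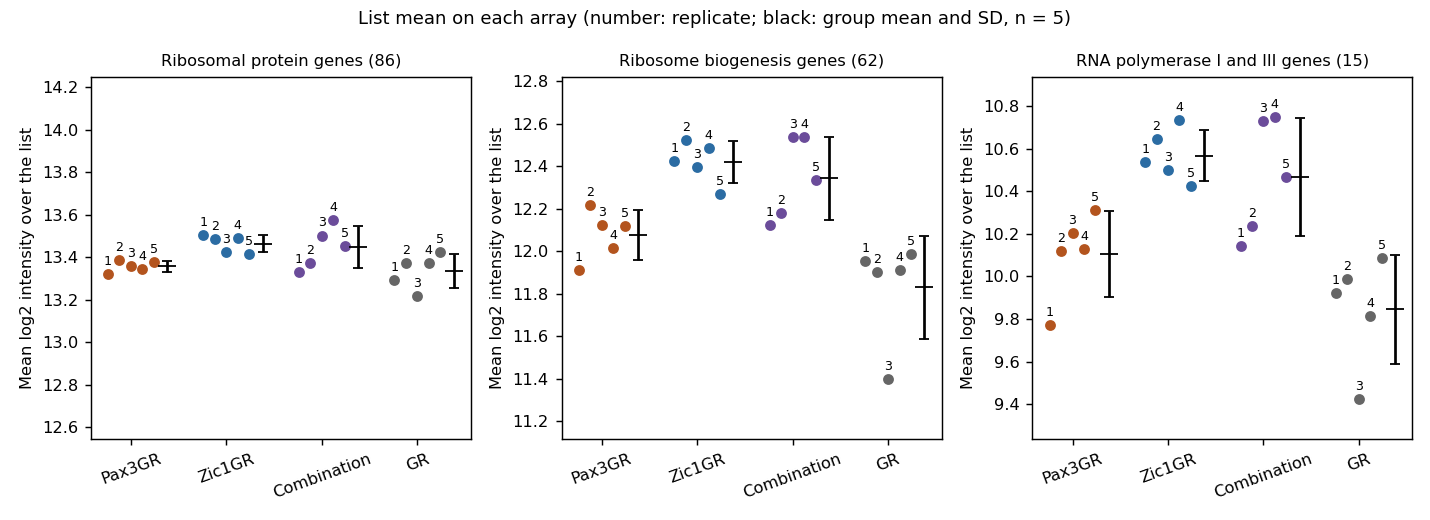
Mean log2 intensity over the 86 ribosomal protein genes, the 62 ribosome biogenesis genes and the 15 RNA polymerase I and III genes on each array. Points are arrays numbered by replicate, the black mark and bar are the group mean and SD of 5 arrays, and all panels span the same number of log2 units; the ribosomal protein means lie between 13.22 and 13.57 on all 20 arrays, while GR replicate 3 is the lowest array for all 3 lists.

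Against GR, few of the ribosomal protein genes were called higher, and 0 were called lower. Under 3 of the alternatives, those without GR replicate 3, without the least typical array of each group and with array weights, rpl29.S and rpl37.S were called lower with Pax3GR. A gene was called where limma's adjusted p over all 20519 probe sets was under 0.05. With Pax3GR 2 of 86 members were called higher and 0 lower, with Zic1GR 13 higher and 0 lower, and with the combination 3 higher and 0 lower. At an unadjusted p under 0.05, 0 members were lower in each of the 3 comparisons and 2, 17 and 8 were higher. No share of all probe sets is given at that threshold. The counts at the adjusted p stand against a background in which 50.3%, 51.4% and 44.8% of all probe sets were called in either direction (27.3%, 28.6% and 24.6% higher and 23.0%, 22.8% and 20.3% lower). The shares of members called lay below these shares, and also below those of probe sets of like brightness: of the 1269 probe sets at 13 or more, 34.4% were called with Pax3GR, 34.0% with Zic1GR and 26.8% with the combination, against 1, 9 and 2 of the 75 members at that level. Of the 11 dimmer members 1, 4 and 1 were called. For 5 members all Pax3GR arrays lay above all GR arrays, for 13 all Zic1GR arrays and for 2 all combination arrays, and 0 members had all arrays of an injected group below GR. Over all probe sets 21.2%, 21.6% and 19.0% lay apart from GR on the higher side and 17.6%, 19.1% and 17.4% on the lower.

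The counts moved with single arrays. The Pax3GR count of 2 was 1 without Pax3GR replicate 2, 3, 4 or 5 or GR replicate 2 or 4. The Zic1GR count of 13 was 5 without GR replicate 3, 6 without Zic1GR replicate 1, 8 without Zic1GR replicate 2, 7 without Zic1GR replicate 4 and 8 without GR replicate 4. The combination count of 3 was 6 without combination replicate 1. Centring each array on its median turned the Zic1GR count into 27. The shares of all probe sets under these settings are not given here. These counts can thus not be set against the shares of the main fit.

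The median changes were small. The median change of the members against GR was 0.032 on the log2 scale with Pax3GR, 0.097 with Zic1GR and 0.071 with the combination, beside medians of 0.095, 0.087 and 0.079 over all probe sets tested. The Pax3GR median turned to -0.0031 when each array was centred on its median. The difference was above 0 for 59 of 86 members with Pax3GR, 79 with Zic1GR and 81 with the combination, against 11469, 11298 and 11317 of 20519 probe sets. It ran from -0.36 to 0.36 with Pax3GR, from -0.09 to 1.01 with Zic1GR and from -0.04 to 0.86 with the combination. The 95% confidence interval of the difference lay inside 1 log2 unit either way for 84, 83 and 83 members and inside 0.5 for 80, 79 and 78. The group mean was highest with Zic1GR for 59 members, with the combination for 19, with Pax3GR for 8 and with GR for 0. Averaged per array, the 11 members under log2 13 had group means of 9.08 with Pax3GR, 9.46 with Zic1GR, 9.47 with the combination and 9.12 with GR. Those of the 75 brighter members were 13.98, 14.05, 14.03 and 13.95 in the same order. In both sets the arrays of each injected group overlapped with those of GR.

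**Figure D2:**
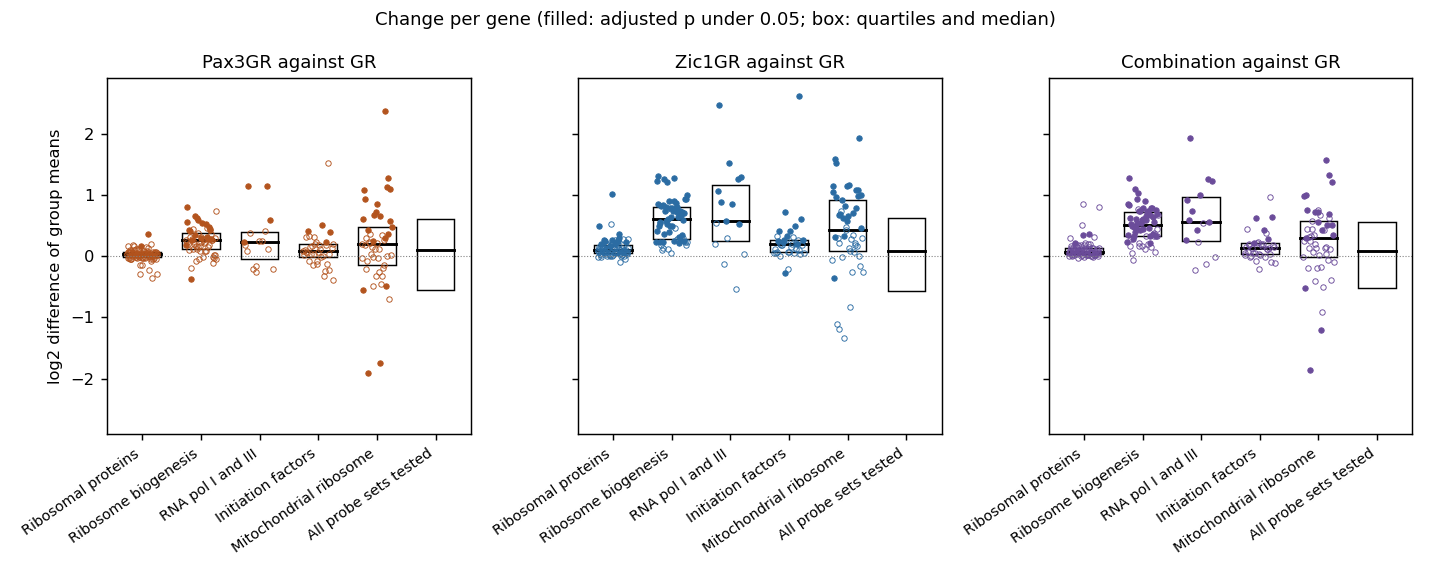
Difference of group means against GR (log2) for each gene of 5 lists, with Pax3GR, Zic1GR and the combination in separate panels; filled points have an adjusted p under 0.05, and boxes give the quartiles and the median, for all 20519 probe sets as a box alone. The ribosomal protein genes lie close to 0 in all panels, while the median of the biogenesis genes is 0.25 with Pax3GR, 0.60 with Zic1GR and 0.51 with the combination.

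Among the 32 small-subunit genes 1, 5 and 1 were called higher (27.3%, 28.6% and 24.6% of all probe sets) with Pax3GR, Zic1GR and the combination. The gene called in all 3 comparisons was rps4x.S, whose human counterpart is the X-linked form of a small-subunit protein. Its log2 intensity was 12.31, 12.52, 12.47, 12.58 and 12.60 with Pax3GR, 12.59, 12.39, 12.45, 12.36 and 12.35 with Zic1GR, 12.48, 12.57, 12.37, 12.64 and 12.42 with the combination and 12.13, 12.23, 11.997, 12.22 and 12.11 with GR. All 15 arrays of the injected factors lay above all 5 GR arrays. The rise of rps4x.S was 0.36 with Pax3GR (SE 0.086, 1.28-fold, adjusted p = 0.0022), 0.29 with Zic1GR (1.22-fold, adjusted p = 0.00993) and 0.36 with the combination (1.28-fold, adjusted p = 0.00285).

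The largest rise of a small-subunit gene whose groups lay apart was that of rps6.L with Zic1GR. The protein of rps6 is the substrate after which the S6 kinases of the growth pathway are named. Its log2 intensity was 10.33, 10.27, 10.60, 10.48 and 10.96 with Zic1GR and 10.01, 10.08, 9.89, 10.14 and 10.04 with GR, so that all Zic1GR arrays were higher than all GR arrays. The rise was 0.50 (SE 0.12, adjusted p = 0.0028). With Pax3GR rps6.L read 10.11, 10.44, 10.06, 10.13 and 10.27, a difference of 0.17 from GR (adjusted p = 0.259), and with the combination 10.50, 10.40, 10.30, 10.13 and 10.27, a difference of 0.29 (adjusted p = 0.0636). Of the other small-subunit genes, rps7.L, whose human counterpart binds MDM2, rose by 0.17 with Zic1GR (adjusted p = 0.0485), and rps3.L, a protein at the entry of the mRNA channel, by 0.27 (adjusted p = 0.0244).

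Against GR, the single member with a called change of over 2-fold was rps28p9.S with Zic1GR, a gene chosen after its values were seen. Its values were 8.47, 8.81, 6.78, 7.58 and 8.83 with Zic1GR and 7.15, 6.91, 6.35, 7.29 and 7.72 with GR, a rise of 1.01 (adjusted p = 0.0439). Over all probe sets, called rises of at least 2-fold made up 14.4%, 14.2% and 12.2% with Pax3GR, Zic1GR and the combination, and called falls 16.4%, 15.7% and 13.9%. The groups of rps28p9.S overlapped, and the gene's other probe set differed by 0.16 (adjusted p = 0.0755).

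Of the 54 large-subunit genes 1, 8 and 2 were called higher (27.3%, 28.6% and 24.6% of all probe sets) with Pax3GR, Zic1GR and the combination. The gene called in all 3 was rpl36a.L. Its log2 intensity was 13.51, 13.52, 13.50, 13.51 and 13.51 with Pax3GR, 13.55, 13.63, 13.61, 13.67 and 13.57 with Zic1GR, 13.65, 13.77, 13.64, 13.69 and 13.67 with the combination and 13.36, 13.31, 13.25, 13.35 and 13.42 with GR. GR was the lowest group, and no injected array overlapped with it. The rise of rpl36a.L was 0.17 with Pax3GR (SE 0.065, adjusted p = 0.0353), 0.27 with Zic1GR (adjusted p = 0.0024) and 0.35 with the combination (adjusted p = 0.000344). The Pax3GR call was lost (adjusted p = 0.0545 to 0.0787) without Pax3GR replicate 2, 3, 4 or 5 or GR replicate 2, 3 or 4. When probe sets marked as able to bind several transcripts were left out, another probe set stood for rpl36a.L, with differences of 0.09, 0.16 and 0.12 (adjusted p = 0.328, 0.0936 and 0.221). Of the 3 further probe sets of rpl36a.L, all were called higher with Zic1GR (by 0.30 to 0.39) and 2 with the combination (by 0.40 and 0.41), while with Pax3GR they differed from GR by -0.09 to 0.06 and were not called.

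The gene rpl18.L, whose protein belongs to the large subunit, was called with Zic1GR. It read 13.36, 13.47, 13.36, 13.38 and 13.39 with Pax3GR, 13.56, 13.52, 13.50, 13.58 and 13.64 with Zic1GR, 13.35, 13.44, 13.47, 13.56 and 13.43 with the combination and 13.16, 13.40, 13.19, 13.33 and 13.44 with GR. All Zic1GR arrays lay above all GR arrays, and the other groups overlapped with GR. Its rise with Zic1GR was 0.26 (SE 0.076, adjusted p = 0.00946). With Pax3GR rpl18.L differed from GR by 0.09 (adjusted p = 0.344) and with the combination by 0.15 (adjusted p = 0.122), and the difference between Pax3GR and Zic1GR, -0.17, missed the threshold (adjusted p = 0.0992).

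A gene named for its likeness to rpl7, rpl7l1.L, rose with Zic1GR by 0.24 (adjusted p = 0.021) and with the combination by 0.22 (adjusted p = 0.0374). With Pax3GR its 5 values, 13.32 to 13.42, also lay above those of GR, 13.05 to 13.31, with a difference of 0.16 that was not called (adjusted p = 0.109). The rpl22 paralogue rpl22l1.L was not called, with differences of -0.14, 0.13 and 0.18. The other large-subunit genes called with Zic1GR were rpl17.L (0.23, adjusted p = 0.0267), rpl34.L (0.23, adjusted p = 0.030), rpl36.L (0.20, adjusted p = 0.0442) and rpl39.L (0.19, adjusted p = 0.0368).

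The P stalk, made of the proteins of rplp0, rplp1 and rplp2, is the arm of the large subunit that recruits elongation factors. Of its 4 members 0, 1 and 0 were called against GR with Pax3GR, Zic1GR and the combination. Over all probe sets these shares were 50.3%, 51.4% and 44.8%. At an unadjusted p under 0.05 the stalk members included rplp0.S and rplp1.L with Zic1GR and rplp0.S with the combination. For rplp1.L the values were 11.92, 12.13, 12.18, 12.11 and 12.17 with Pax3GR, 12.37, 12.32, 12.34, 12.35 and 12.25 with Zic1GR, 12.01, 12.10, 12.10, 12.37 and 12.22 with the combination and 11.99, 11.97, 11.68, 12.14 and 12.08 with GR. Zic1GR was the high group and lay apart from GR. The rise with Zic1GR was 0.36 (SE 0.096, adjusted p = 0.00537), beside differences of 0.13 with Pax3GR (adjusted p = 0.267) and 0.19 with the combination (adjusted p = 0.117). The differences of rplp0.S were 0.02, 0.19 and 0.19 (adjusted p = 0.832, 0.0654 and 0.0796), those of rplp2.L 0.00, 0.14 and 0.09, and those of rplp2.S -0.14, 0.17 and 0.18.

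The proteins of rpl5 and rpl11 form with 5S ribosomal RNA the particle that holds MDM2 when ribosome assembly fails, and so links the ribosome to p53. Their genes lay close to GR in all groups. The values of rpl11.S ran from 14.53 to 14.62 with Pax3GR, 14.53 to 14.65 with Zic1GR, 14.53 to 14.68 with the combination and 14.48 to 14.64 with GR. Its differences were 0.02, 0.04 and 0.04, those of rpl5.L -0.03, -0.02 and 0.00, and those of rpl5.S 0.10, 0.01 and 0.11. Of the 12 members whose human counterparts are mutated in Diamond-Blackfan anaemia, an inherited failure of red cell production, 1 was called in any comparison with GR, rps7.L with Zic1GR. Over all probe sets 50.3%, 51.4% and 44.8% were called with Pax3GR, Zic1GR and the combination.

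**Figure D3:**
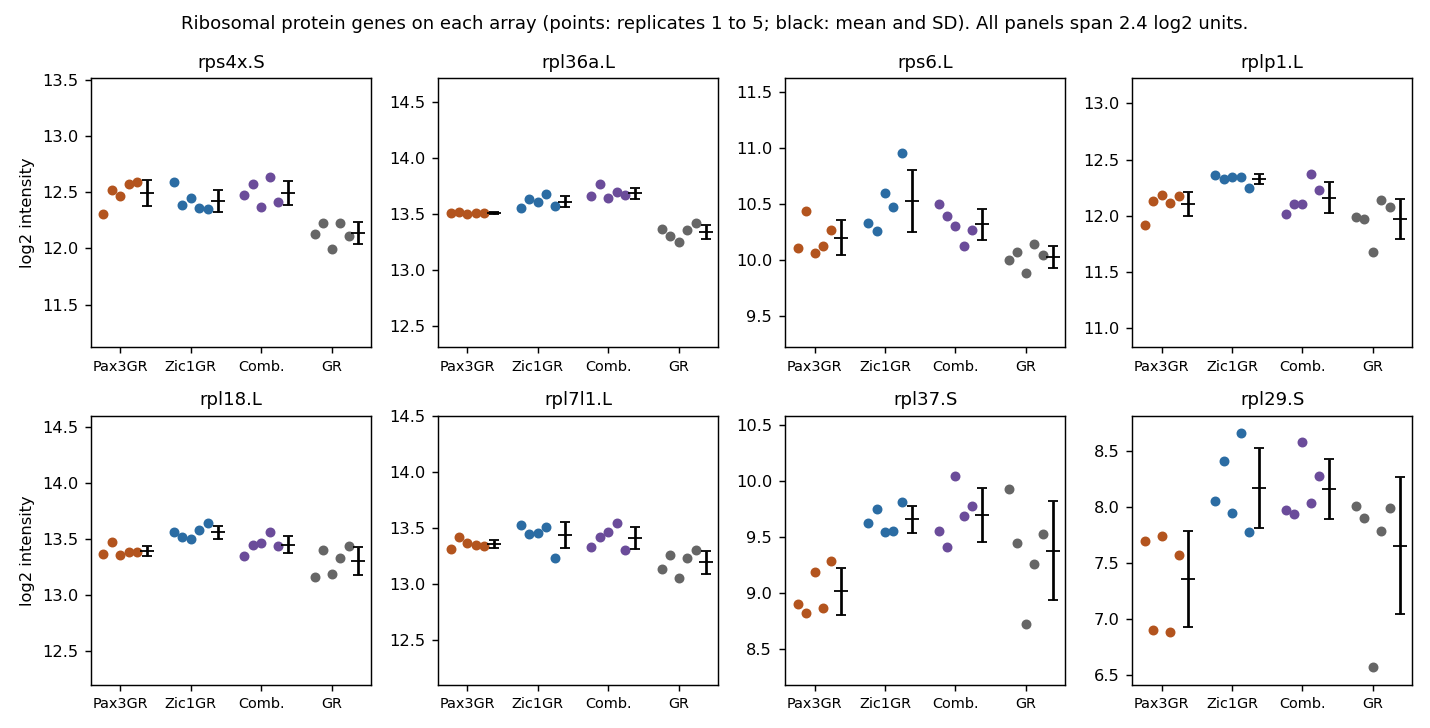
Log2 intensity of 8 ribosomal protein genes on each array, by group, with the mean and SD of 5 arrays in black; all panels span the same number of log2 units. For rps4x.S and rpl36a.L all arrays of the injected factors lie above those of GR, for rpl37.S the Pax3GR arrays lie below those of Zic1GR and of the combination, and GR replicate 3 is the low point of rpl29.S at 6.57.

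Between the injected groups the members differed least from the combination to Zic1GR. There 0 of 86 were called, and 0 at an unadjusted p under 0.05, against 13.3% of all probe sets (7.05% higher and 6.25% lower), with a median difference of -0.021. Of the combination against Pax3GR 1 member was called higher and 0 lower, against 10.3% of all probe sets (4.28% higher and 5.98% lower). The median difference was 0.044. At an unadjusted p under 0.05, for which no share of all probe sets is given, 9 members were higher and 0 lower. Of Pax3GR against Zic1GR 0 were called higher and 4 lower, rpl29.S, rpl37.S, rps6.L and rps9, against 34.3% of all probe sets (17.3% higher and 17.0% lower). The median difference was -0.071. At an unadjusted p under 0.05, 0 members were higher and 11 lower, again with no share of all probe sets given. For 13 members all 5 Pax3GR arrays lay below all 5 Zic1GR arrays and for 1 above; over all probe sets 11.2% lay apart with Pax3GR lower and 12.1% with Pax3GR higher. The combination lay apart from Pax3GR for 3 members, higher in each, against 3.21% of all probe sets higher and 4.20% lower, and apart from Zic1GR for 0 members, against 5.71% higher and 5.05% lower.

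These counts also moved with the scaling and with single arrays. When each array was centred on its median, the median of all probe sets for Pax3GR against Zic1GR went to -0.149 instead of -0.045, the calls over all probe sets split into 2925 higher and 4571 lower instead of 3543 and 3494, and 21 members were called lower. For the combination against Pax3GR the same centring gave 1159 higher and 1005 lower instead of 878 and 1228, and 4 members higher. The Pax3GR against Zic1GR count of 4 was 1 without Pax3GR replicate 4 or Zic1GR replicate 4, 2 without Pax3GR replicate 3 or 5 or Zic1GR replicate 2, and 6 without GR replicate 3. The combination against Pax3GR count of 1 was 0 without Pax3GR replicate 4 or combination replicate 3, and 2 without Pax3GR replicate 1, combination replicate 1 or 2 or GR replicate 3.

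Among the 4 members called between Pax3GR and Zic1GR, rpl29.S and rpl37.S, which encode large-subunit proteins, had the widest differences, while rps28p9.S differed by -1.02 and was not called (adjusted p = 0.0577). The values of rpl37.S were 8.91, 8.82, 9.19, 8.87 and 9.29 with Pax3GR, 9.63, 9.75, 9.54, 9.56 and 9.82 with Zic1GR, 9.55, 9.41, 10.04, 9.69 and 9.78 with the combination and 9.93, 9.44, 8.72, 9.26 and 9.52 with GR. Pax3GR was low, and the GR arrays spread over nearly the whole range. For rpl37.S the difference of Pax3GR from Zic1GR was -0.64 (adjusted p = 0.00918) and that of the combination from Pax3GR 0.68 (SE 0.18, adjusted p = 0.0199). The second of these was not called without Pax3GR replicate 4 (adjusted p = 0.0584) or without combination replicate 3 (adjusted p = 0.061). None of its 3 differences from GR was called (-0.36, 0.28 and 0.32).

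For rpl29.S the values were 7.70, 6.91, 7.74, 6.89 and 7.57 with Pax3GR, 8.05, 8.41, 7.95, 8.66 and 7.78 with Zic1GR, 7.97, 7.94, 8.58, 8.04 and 8.28 with the combination and 8.01, 7.90, 6.57, 7.79 and 8.00 with GR. All Pax3GR arrays lay below all Zic1GR arrays. The difference was -0.81 (SE 0.27, adjusted p = 0.0267) and was not called (adjusted p = 0.0632 to 0.0750) without Pax3GR replicate 2 or 4 or Zic1GR replicate 2 or 4. The low GR array of rpl29.S was replicate 3. The other genes called, rps6.L and rps9, differed by -0.33 (adjusted p = 0.0473) and -0.22 (adjusted p = 0.0353).

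Across the 3 comparisons with GR, which share the GR arrays, 73 members were called in none, rps4x.S and rpl36a.L in all, rpl7l1.L with Zic1GR and the combination, and 10 with Zic1GR only. That a gene passed with Zic1GR and not with Pax3GR does not show that these groups differ. Of the 10, the direct difference between Pax3GR and Zic1GR was called for rps6.L.

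For 16 genes both the .L and the .S copy were members. The copies were rarely told apart in how they moved: the change of .L minus the change of .S was called for 0 of 16 pairs in each comparison with GR (1, 3 and 0 at an unadjusted p under 0.05 with Pax3GR, Zic1GR and the combination), while 39.1%, 36.3% and 30.2% of the 1415 pairs of all genes were called with Pax3GR, Zic1GR and the combination. The median size of the difference in change was 0.078, 0.057 and 0.076 on the log2 scale, against 0.476, 0.463 and 0.410 over all pairs. Its 95% interval lay inside 0.5 log2 units either way for 14 of the 16 pairs in each comparison with GR, the others being rpl29 and rpl34. Leaving out 1 array gave 1 called pair with Pax3GR without GR replicate 1 and 1 with Zic1GR without Zic1GR replicate 5 or GR replicate 5. Both copies changed in the same direction in 10 of 16 pairs with Pax3GR, 14 with Zic1GR and 14 with the combination. Over the 1415 pairs of all genes this held for 985, 1045 and 1025. Over the 20 arrays the values of the .L and .S copy correlated at 0.14 in rps20, the lowest of the 16 pairs, to 0.86 in rpl7a, the highest. Some probe sets may bind messages of both copies, and their specificity was not tested.

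The copies of rpl18 came nearest to a difference with Zic1GR. The .L copy differed from GR by 0.26 and the .S copy by 0.07, and the difference in change was 0.19 (95% interval 0.025 to 0.352, adjusted p = 0.0654). In rps3 the .L copy differed by 0.27 and the .S copy by 0.07 with Zic1GR (adjusted p of the difference = 0.0988), and by 0.18 and -0.03 with Pax3GR (adjusted p = 0.0894). In rps12 the copies differed from GR by 0.14 and -0.06 with Zic1GR (adjusted p of the difference = 0.0910). None of these passed the threshold. With Zic1GR 5 pairs had one copy called and the other not, which is no test of a difference. Over all members, 11 of 42 .L genes and 2 of 42 .S genes were called higher with Zic1GR, against 28.6% of all probe sets. The median change was 0.11 for .L genes and 0.08 for .S genes. Most of the .L and .S members are different genes, and whether .L genes as a set differ from .S genes was not tested.

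Between Pax3GR and Zic1GR 2 of the 16 pairs differed, against 28.2% of all pairs. At an unadjusted p under 0.05, 3 of the 16 differed. The .L copy of rps12, a small-subunit protein, read 13.67, 13.78, 13.63, 13.58 and 13.70 with Pax3GR and 13.84, 13.87, 13.85, 13.93 and 13.68 with Zic1GR. Its .S copy read 14.38, 14.31, 14.42, 14.43 and 14.41 with Pax3GR and 14.36, 14.31, 14.23, 14.32 and 14.20 with Zic1GR. The .L copy was thus mostly lower and the .S copy mostly higher with Pax3GR, by -0.17 and 0.11, and neither change was called by itself. The difference in change was -0.27 (95% interval -0.455 to -0.090, adjusted p = 0.0248). In rpl29 the .L copy differed by -0.07 and the .S copy by -0.81, a difference of 0.74 (adjusted p = 0.0397). Leaving out 1 array at a time gave between 0 and 2 such pairs, with 0 without Pax3GR replicate 4 or Zic1GR replicate 4 and 1 without Pax3GR replicate 2 or 3 or Zic1GR replicate 1, 2 or 3. Of the combination against Pax3GR and against Zic1GR 0 pairs differed, against 8.83% and 13.4% of all pairs. The first count was 1 without combination replicate 2 or GR replicate 3. At an unadjusted p under 0.05, 2 and 0 pairs differed, with no share of all pairs given.

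**Figure D4:**
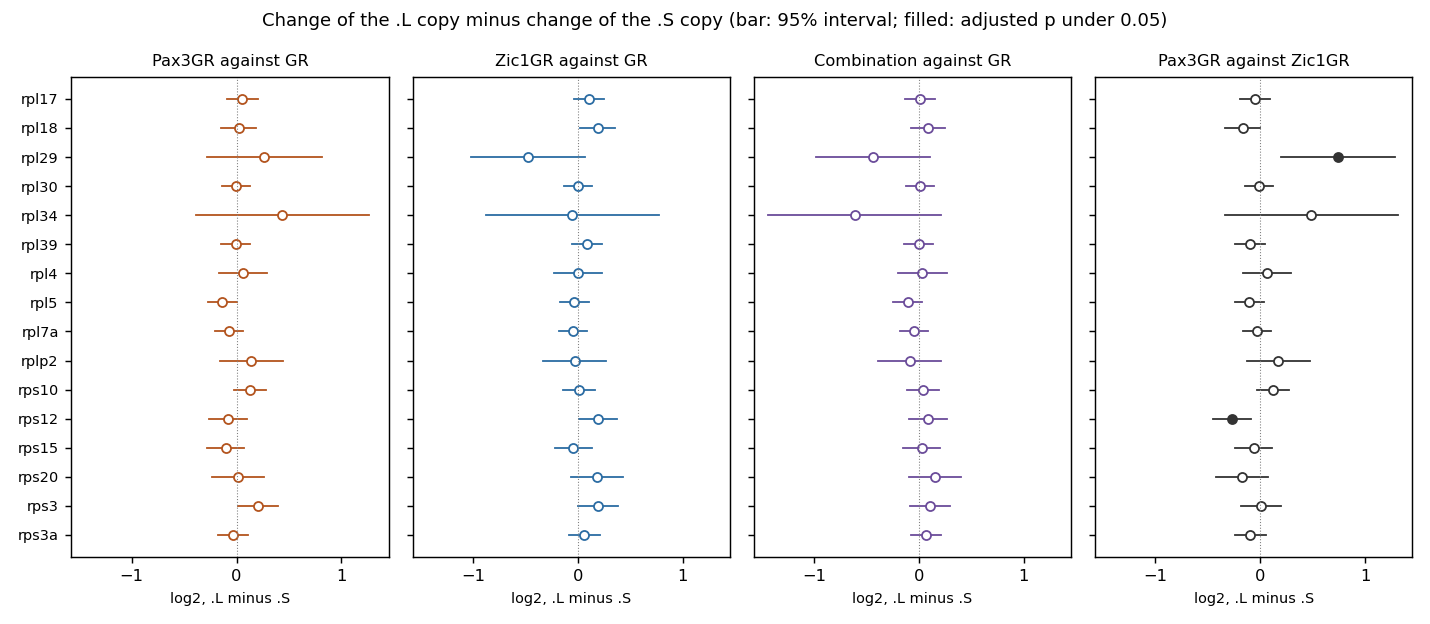
Change of the .L copy minus change of the .S copy (log2) for the 16 ribosomal protein genes with both copies, with 95% intervals, in 4 comparisons; filled points have an adjusted p under 0.05. Against GR no interval belongs to a called difference, and between Pax3GR and Zic1GR rps12 lies at -0.27 and rpl29 at 0.74.

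The pairs with the largest gap in brightness were rpl34 (13.92 for .L and 5.01 for .S) and rps15 (14.01 and 6.71). For rpl34.S the values ran from 4.34 to 4.71 with Pax3GR, 4.35 to 5.94 with Zic1GR, 4.44 to 6.78 with the combination and 4.39 to 5.71 with GR, and no comparison was called. Where a member had other probe sets that passed, 50 of them over 31 genes, the sign of the difference from GR was that of the member for 32 with Pax3GR, 47 with Zic1GR and 45 with the combination. Member and other probe set were both called in the same direction for 0, 4 and 2, and in opposite directions for 0. In all 2, 10 and 7 of the 50 were called, higher in each case, against 27.3%, 28.6% and 24.6% of all probe sets. For 2, 6 and 5 of the called ones the member itself was not called.

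The widest of these gaps was in rpl14.S, a large-subunit gene. Its other probe set read 8.89, 10.23, 10.33, 9.88 and 10.83 with Pax3GR, 9.90, 9.06, 8.73, 9.71 and 9.11 with Zic1GR, 10.13, 10.67, 9.08, 10.64 and 8.95 with the combination and 2.53, 4.72, 2.39, 4.08 and 4.65 with GR. All arrays of the injected groups lay far above all GR arrays. The differences were 6.36, 5.63 and 6.22 on the log2 scale (adjusted p = 1.43e-08, 1.10e-07 and 2.42e-08), beside 0.04, 0.07 and 0.05 for the member probe set of rpl14.S, which was not called. GR replicates 1 and 3, at 2.53 and 2.39, lay below log2 4. The size of the 3 differences thus rests in part on values below that level. A second probe set of rps10.L was also called in all 3 comparisons (adjusted p = 0.00735, 0.0254 and 0.00376), with 4.79 to 5.77 with Pax3GR, 3.34 to 5.62 with Zic1GR, 4.11 to 6.81 with the combination and 2.65 to 3.90 with GR, where it was below log2 4 on every array. That probe set could thus pass the filter only through the injected groups. The member probe set of rps10.L differed by 0.19, 0.13 and 0.14 and was not called. Which message these probe sets read was not tested, so the small changes given for the members hold for the brightest probe set of each gene.

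The 18 probe sets with several symbols, at least one of them ribosomal, gave 0, 1 and 0 calls (0, 5 and 1 at an unadjusted p under 0.05). Over all probe sets 50.3%, 51.4% and 44.8% were called. The gene fau.L, which encodes a ribosomal protein as a fusion and falls outside the rule of names, differed from GR by 0.02, 0.06 and 0.03 and was not called.

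With all arrays kept, the share of ribosome-assembling genes called higher lay above that of all probe sets with Zic1GR and the combination and near it with Pax3GR. Of 62 ribosome biogenesis genes 18 were called higher and 1 lower with Pax3GR, 49 higher and 0 lower with Zic1GR and 44 higher and 0 lower with the combination, with median changes of 0.25, 0.60 and 0.51 on the log2 scale. The shares called higher were 29.0%, 79.0% and 71.0%, against 27.3%, 28.6% and 24.6% of all probe sets, and the share called in either direction with Pax3GR, 30.6%, was under the 50.3% of all probe sets. Per array their mean log2 intensity ran from 11.91 to 12.22 with Pax3GR, 12.27 to 12.53 with Zic1GR, 12.12 to 12.54 with the combination and 11.40 to 11.99 with GR. GR replicate 3 was again the low array, and without it 7 were called higher with Pax3GR, 39 with Zic1GR and 35 with the combination. The shares of all probe sets without that array are not given, so these counts cannot be set against the shares above. Between Pax3GR and Zic1GR 0 of the 62 were called higher and 21 lower, against 17.3% and 17.0% of all probe sets. Calls over all probe sets in this comparison moved toward lower when arrays were centred, as given above.

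Among them was utp15.L, part of the complex that processes the small-subunit ribosomal RNA. It read 11.66, 12.21, 12.23, 12.05 and 12.13 with Pax3GR, 12.55, 12.64, 12.60, 12.65 and 12.83 with Zic1GR, 12.22, 12.33, 12.71, 12.69 and 12.43 with the combination and 11.60, 11.44, 10.84, 11.61 and 11.71 with GR. Zic1GR and the combination lay apart from GR, and 1 Pax3GR array lay below the highest GR array. The rise of utp15.L was 0.62 with Pax3GR (adjusted p = 0.00329), 1.21 with Zic1GR (adjusted p = 8.96e-06) and 1.03 with the combination (adjusted p = 4.76e-05). The nucleolar chaperone gene npm1.S rose by 0.18, 0.23 and 0.24 (adjusted p = 0.0252, 0.00826 and 0.00697). The gene rrs1.L, a factor of large-subunit assembly, rose by 1.28 with Zic1GR and 0.89 with the combination, with a difference of 0.21 with Pax3GR that was not called (adjusted p = 0.366). The gene tsr1.L, which acts in small-subunit maturation, fell by 0.38 with Pax3GR (adjusted p = 0.0115).

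Of 15 RNA polymerase I and III genes 4 were called higher with Pax3GR, 9 with Zic1GR and 10 with the combination, and 0 lower in each (also 0 lower at an unadjusted p under 0.05). These are 26.7%, 60.0% and 66.7% of the list, so the Pax3GR share was near the 27.3% of all probe sets called higher. Without GR replicate 3 the counts were 2, 8 and 8, with no share of all probe sets given for that fit. The subunit gene polr1e.L rose by 1.15, 1.26 and 1.26, and polr3a.L, for the largest subunit of RNA polymerase III, by 1.14, 2.47 and 1.93. Of 49 mitochondrial ribosome genes 17 were called higher and 4 lower with Pax3GR, 24 and 1 with Zic1GR and 15 and 3 with the combination. The shares higher, 34.7%, 49.0% and 30.6%, stand against 27.3%, 28.6% and 24.6% of all probe sets, and the shares lower, 8.16%, 2.04% and 6.12%, against 23.0%, 22.8% and 20.3%. An example is mrps12.L, which rose by 2.37, 1.08 and 1.57.

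Of 37 initiation factor genes 4 were called higher and 0 lower with Pax3GR, 12 and 1 with Zic1GR and 5 and 0 with the combination (1, 1 and 0 lower at an unadjusted p under 0.05). The shares higher, 10.8%, 32.4% and 13.5%, were below the share of all probe sets with Pax3GR and the combination and near it with Zic1GR. Without GR replicate 3 the higher calls were 2, 7 and 3, with no share of all probe sets given for that fit. The translational repressor eif4ebp2.S rose in all 3, by 0.39, 0.60 and 0.64. Elongation factors and other genes whose messages carry a TOP tract gave 4 higher and 1 lower, 4 and 2, and 3 and 2 of 21, and the 4 with Pax3GR were 2 without GR replicate 3. With all arrays kept, their shares higher, 19.0%, 19.0% and 14.3%, were below those of all probe sets. Among these eef1a1o.L, a copy of elongation factor 1 alpha, fell by 2.01, 1.29 and 1.97, with 11.60 to 11.92 on the Pax3GR arrays, 11.87 to 13.01 on the Zic1GR arrays, 11.43 to 12.10 on the combination arrays and 13.42 to 13.92 on the GR arrays. Its .S copy differed by -0.08, -0.09 and -0.13 and was not called. The gene of the intermediate filament vimentin, vim.S, rose by 6.51, 2.63 and 5.61 from a GR mean of 5.64. It reached log2 4 on 4 of the 5 GR arrays. Its .L copy, with a GR mean of 10.71, differed from GR by 0.24, -0.32 and 0.30 and was not called.

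Growth regulators, taken as the Myc family, the TOR pathway, the S6 kinases and p53 with its target cdkn1a, gave 6 higher and 5 lower of 20 in each comparison, which at 30% and 25% is near the shares of all probe sets. The Myc genes are regulators of ribosome production. The gene myc.S rose by 0.99 with Pax3GR, 2.25 with Zic1GR and 1.46 with the combination, and mycn.L by 4.69, 5.14 and 2.89. The other copy, myc.L, fell by 0.73 with Pax3GR (adjusted p = 0.000565) and differed from GR by 0.12 with Zic1GR and 0.02 with the combination. Of the kinases named for ribosomal protein S6, rps6kb1.L and rps6kb1.S were not called. The gene rps6ka1.L rose 2.79-fold with Pax3GR (adjusted p = 5.40e-05) and 2.83-fold with the combination (adjusted p = 6.65e-05) and fell by 0.76 on the log2 scale with Zic1GR (adjusted p = 0.0125). The gene rps6ka3.L fell by 0.79 on that scale with the combination (adjusted p = 0.0304). The p53 target cdkn1a.L was below log2 4 on all arrays of Zic1GR and of the combination and was at least 3.39-fold lower than in GR in both (adjusted p = 5.68e-06 and 6.16e-06), taking log2 4 as the floor. With Pax3GR cdkn1a.L reached log2 4 on 1 of 5 arrays and was likewise called lower than in GR (adjusted p = 1.45e-05). It reached that level on all 5 GR arrays and could not have passed the filter without them. A lower value against GR was thus largely fixed by the filter, and these p-values are no independent support for a fall.

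Markers of the cell types of the caps differed between the groups as well. Summed linear intensities of markers of ionocytes were 122.2 to 2063 with Pax3GR, 143.0 to 6046 with Zic1GR, 134.8 to 1924 with the combination and 25960 to 44720 with GR, and 8 of 8 marker genes fell in each comparison. The defining marker atp6v1b1.L was below log2 4 on all arrays of the 3 injected groups, as were slc26a4.3.L and slc26a4.3.S. These could pass the filter only through GR, so that their fall was largely fixed by the filter and is no independent support. Summed intensities of multiciliated cell markers were 363.9 to 34840, 1095 to 14330, 601.3 to 15960 and 39980 to 77150 in the same order of groups. Of these genes 11, 10 and 8 of 11 fell. Those of epidermis were 55210 to 154900 with Pax3GR, 85520 to 153900 with Zic1GR, 79580 to 157500 with the combination and 180800 to 193800 with GR. Of 12 epidermal marker genes 10 fell and 1 rose with Pax3GR. With Zic1GR 3 of them fell, with the combination 2, and 0 rose in either comparison. In the control caps the epidermal and ciliated markers were thus mostly present, as the labelled tissue would have, while markers of blood stayed below log2 4 on all 20 arrays. The epidermal xepsin.S and the ciliated dnah9.S were below log2 4 on all GR arrays. Markers of endoderm summed to 1508 to 3934 with GR, where sox17a.L and sox17a.S stayed below log2 4. Markers of neural crest summed to 9728 to 18880 with Pax3GR, 3373 to 10760 with Zic1GR, 33490 to 48010 with the combination and 564.7 to 1291 with GR, and 7, 6 and 7 of 7 rose. Of the crest markers, snai2.S, sox10.L and twist1.L were below log2 4 on all Pax3GR, Zic1GR and GR arrays. They could pass the filter only through the combination, so any rise of theirs there would be largely fixed by the filter. It is not given whether they are among the 7 genes counted. Over all probe sets 23.0%, 22.8% and 20.3% were called lower and 27.3%, 28.6% and 24.6% higher in these comparisons with GR. In whole explants fewer cells of a type and less RNA per cell cannot be told apart. The part of these shifts in the changes of the ribosomal protein and biogenesis genes was not tested.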

How the data were processed

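The deposited values are log2 intensities per probe set of 20 Affymetrix Xenopus laevis Genome 2.0 arrays. GCRMA and Partek are listed, without a version, per the submitters' processing notes. GCRMA as a method corrects background by probe sequence and makes the distributions of the arrays alike, so a change common to most genes would not be seen. RNA was amplified from poly(T) and random primers, per the labels' protocols.

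Control probe sets were left out. The values were fitted without further normalization with limma 3.58.1 in R 4.3.3 (lmFit and eBayes, 1 mean per group, all 20 arrays, 16 residual degrees of freedom), with Benjamini-Hochberg adjustment over the 20519 probe sets at log2 4 or more on at least 5 arrays. For .L and .S copies the difference of both values per array was fitted in the same way over 1415 pairs. The fits were tested on simulated data. Gene names came from the platform annotation, and 85 of the 86 members were found in the RefSeq gene table. The members and all lists were chosen with earlier results of these data known. Genes named were rpl18.L, the P stalk, rpl5, rpl11 and rpl-like paralogues, per comparison the largest called changes with groups apart (5 each way against GR, 2 otherwise), the 3 brightest and 3 dimmest members and the copy pairs nearest to a difference. Genes named from the other lists, and those named to complete a count, are examples chosen after their values were seen.

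Replicate numbers were not used to pair the arrays in the main fit: deviations of same-numbered arrays correlated at -0.38 to 0.47, above 0.1 in 8 of 30 pairs. Whether same-numbered explants shared a clutch or day cannot be told from these values. No 2 arrays were identical. Alternatives were 12 changes of filter, scaling, fit, threshold or probe set, each array left out in turn, and, chosen after seeing the data, the least typical array of each group left out.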

Additional observations from a re-analysis of the deposited data

Results flagged for a closer look

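Of 128 groups of 5 values tested for a value far from the other 4, 10 were flagged, and chance flags about 1 in 20. With Pax3GR, replicate 2 of rpl18.L was high (13.47), and replicate 1 was low in rplp0.S (13.35), rplp1.L (11.92) and rpl29.L (13.72). With Zic1GR, replicate 5 was low in rpl7l1.L (13.24) and rps3.L (13.34), and replicate 1 was high in rps3a.S (14.89). With GR, replicate 3 was low in rpl29.S (6.57) and rps15.S (6.32), and replicate 5 was high in rps3a.S (14.83).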

How the results depend on the processing

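Called members are given against GR with Pax3GR, with Zic1GR and with the combination, then for the combination against Pax3GR and Pax3GR against Zic1GR (2, 13, 3, 1 and 4 as reported). These counts stand without the shares of all probe sets under each setting and cannot be set against the shares of the main fit. Without a filter on low values they were 5, 23, 9, 3 and 9, with centred arrays 1, 27, 5, 4 and 21, and with an intensity trend and robust eBayes 7, 27, 11, 5 and 10. With array weights they were 4, 20, 3, 3 and 18, of which 2 of the first 4 were lower, with only the 2 groups compared 1, 7, 4, 1 and 2, and at an adjusted p of 0.01 1, 5, 2, 0 and 1. Asking also for 2-fold left 0, 1, 0, 0 and 0, the mean of all probe sets of a symbol gave 3, 17, 7, 4 and 10, and probe sets without _s_at or _x_at gave 1 with Pax3GR. Without the least typical array of each group, an alternative chosen after seeing the data, the combination against Pax3GR had 2 and against Zic1GR 1. The replicate block left 1 with Pax3GR and 1 for Pax3GR against Zic1GR, with 9, 2, 1 and 0 with Zic1GR, with the combination and for the combination against Pax3GR and Zic1GR, and rpl29.S for Pax3GR against Zic1GR at an adjusted p of 0.0511 and rpl36a.L with Pax3GR at 0.0600.

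Leaving out 1 array gave 1 to 3 with Pax3GR, 5 to 14 with Zic1GR, 2 to 6 with the combination, 0 to 2 for the combination against Pax3GR, 0 to 0 for the combination against Zic1GR and 1 to 6 for Pax3GR against Zic1GR. Pairs of copies that differed (0, 0, 0, 0, 0 and 2 as reported) were 2 with Pax3GR and 2 with Zic1GR without a filter, 1 with Zic1GR with the intensity trend, 1 for Pax3GR against Zic1GR with the block, and 1 each with Pax3GR, with Zic1GR and for the combination against Pax3GR without the least typical arrays. Leaving out 1 array gave 0 to 1 pairs with Pax3GR, 0 to 1 with Zic1GR, 0 to 1 for the combination against Pax3GR and 0 to 2 for Pax3GR against Zic1GR. The median member change of Pax3GR against Zic1GR was -0.175 with centred arrays. For fewer samples and a stricter threshold the loss follows from the setting, and otherwise the cause was not tested. The 5 arrays of a group limit the precision.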
